A study of Mus musculus with 6 samples.

Results

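The receptors through which hormones and growth factors reach the hepatocyte were followed in senescent and healthy mouse hepatocytes. The 9 genes were chosen by symbol from the 32061 genes of the count table, and all 9 were found. Of these, 7 encode cell surface receptors, namely Gcgr, Insr, Adra1b, Avpr1a, Egfr, Met and Prlr, and Irs1 and Irs2 encode the adaptors that carry the insulin receptor's signal, so the set is not made of receptors alone. Polyadenylated RNA was sequenced from hepatocytes freed by collagenase perfusion and purified on a density gradient, in 3 senescent and 3 healthy samples. Senescent cells came from AhCre+Mdm2fl/fl mice and healthy cells from AhCre- mice, and what Mdm2 alleles these carried is not stated. Mice of both groups were 10 to 12 weeks old and had received intraperitoneal β-naphthoflavone in corn oil at 20 mg/kg for 48 h. AhCre puts Cre recombinase under a Cyp1a1 promoter, which aryl hydrocarbon receptor ligands such as this inducer switch on, and Mdm2 encodes the ubiquitin ligase that holds down p53. The senescent and healthy groups therefore differ in the transgene as well as in Mdm2, and these cannot be told apart. Nothing says that the samples of a group are separate animals, so p-values here reflect only sample-to-sample spread, which may be technical.

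Insulin and glucagon are the opposed hormones of blood glucose. Insulin binds its receptor tyrosine kinase, which phosphorylates the IRS adaptors and so recruits phosphatidylinositol 3-kinase and AKT, whereas glucagon acts through a G protein-coupled receptor, cAMP and protein kinase A. Adrenaline and vasopressin also raise hepatic glucose output, through receptors coupled to Gq, phospholipase C and calcium. EGFR and MET, the receptor of hepatocyte growth factor, are the tyrosine kinases best known for driving hepatocyte growth during liver regeneration, and the prolactin receptor signals through JAK2 and STAT5.

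Senescent libraries held 29992707 to 32210591 counts and healthy libraries 28799392 to 33267299. Levels are given as CPM, counts relative to the library size after TMM scaling, which is meant to offset differences in composition between libraries. They are listed in the order of replicates 1, 2 and 3 of each group, and means carry the SD over 3 libraries. The TMM factors were 1.12, 1.07 and 1.15 in the senescent libraries and 0.893, 0.893 and 0.909 in the healthy ones, so the scaling itself differed by group. Each log2 fold change is the senescent minus the healthy level, ± SE, from edgeR's quasi-likelihood test, with p-values adjusted over the 12949 genes tested and called under 0.05. Mdm2 itself averaged 476 ± 21.7 CPM in senescent and 21.2 ± 1.95 CPM in healthy libraries (log2 fold change 4.49 ± 0.14, edgeR adjusted p = 4.3e-07). A count over the whole gene, which is also a textbook p53 target, does not check the deletion, since the deleted exons are not stated. The defining hepatocyte marker Alb, the gene of albumin, averaged 51519.9 ± 3860.4 CPM in senescent and 90316 ± 9846 CPM in healthy libraries (SD, n = 3 each), and 7 of 10 hepatocyte markers were called lower and 0 higher. Marker transcripts of other cells were present, and some moved with the groups. The 15 macrophage markers, led by Clec4f and Cd5l, summed to 258 to 510 CPM in senescent and 101 to 274 CPM in healthy libraries, with 4 called higher. The 12 stellate cell and fibroblast markers, led by Dcn and Reln, summed to 29.2 to 44.9 CPM in senescent and 12.2 to 19.6 CPM in healthy libraries, with 7 of 11 tested called higher. The 9 cholangiocyte markers, led by Spp1 and Sox9, summed to 11.9 to 16.7 CPM in senescent and 4.88 to 8.12 CPM in healthy libraries, with 3 of 5 tested called higher. Of these 9, 7 averaged under 1 CPM, including 1 with 0 counts in every library. So did 5 of the 12 stellate cell and fibroblast markers. The 11 endothelial markers, led by Vwf and Stab2, summed to 147 to 199 CPM in senescent and 135 to 182 CPM in healthy libraries, with 2 called higher. Over all genes tested, 20.4% were called higher and 20.7% lower. The marker counts depended on the scaling and on single libraries. Scaled by total library size, 13 macrophage, 8 stellate cell and fibroblast, 6 endothelial and 3 cholangiocyte markers were called higher and 4 hepatocyte markers lower. That scaling called 37.5% of all genes higher and 9.92% lower. Leaving out senescent replicate 3 gave 1 macrophage, 2 stellate cell and fibroblast and 1 endothelial marker called higher and 3 hepatocyte markers called lower, whereas leaving out senescent replicate 2 gave 9 macrophage markers higher. Stellate cell and fibroblast markers called higher were 3 without healthy replicate 1 or 3, endothelial ones 1 without senescent replicate 1 or healthy replicate 1 or 3, cholangiocyte ones 5 without healthy replicate 2, and hepatocyte ones called lower were 4 without senescent replicate 1 or 2. All 11 lymphocyte markers averaged under 1 CPM. The part of these cells in the results below was not tested. In such bulk samples, fewer cells of a type and less RNA per cell cannot be told apart.

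In edgeR's test 4 of the 9 genes fell (Irs2, Gcgr, Adra1b and Insr), 2 rose (Irs1 and Egfr) and 3 did not pass (Met, Prlr and Avpr1a). The share called, 66.7%, stands beside 41.1% of all genes tested (20.4% called higher and 20.7% called lower). The CPM of the groups did not overlap for 7 of the 9, against 54.0% of all genes. In TPM, counts per exonic length without TMM scaling, the groups overlapped for Gcgr, Insr, Adra1b, Prlr and Avpr1a. They did not for Irs1, Irs2, Egfr and Met. Irs2 alone among the 9 changed by more than 2-fold. The median log2 fold change was -0.32 over the 9 genes and 0.01 over all genes. Scaling by total library size in place of TMM put the median of all genes at 0.33. On that scale 37.5% of genes were called higher and 9.92% lower, and among the 9 genes 3 rose (Irs1, Egfr and Met) and 1 fell (Irs2). Changes below are relative to TMM unless stated.

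**Figure D1:**
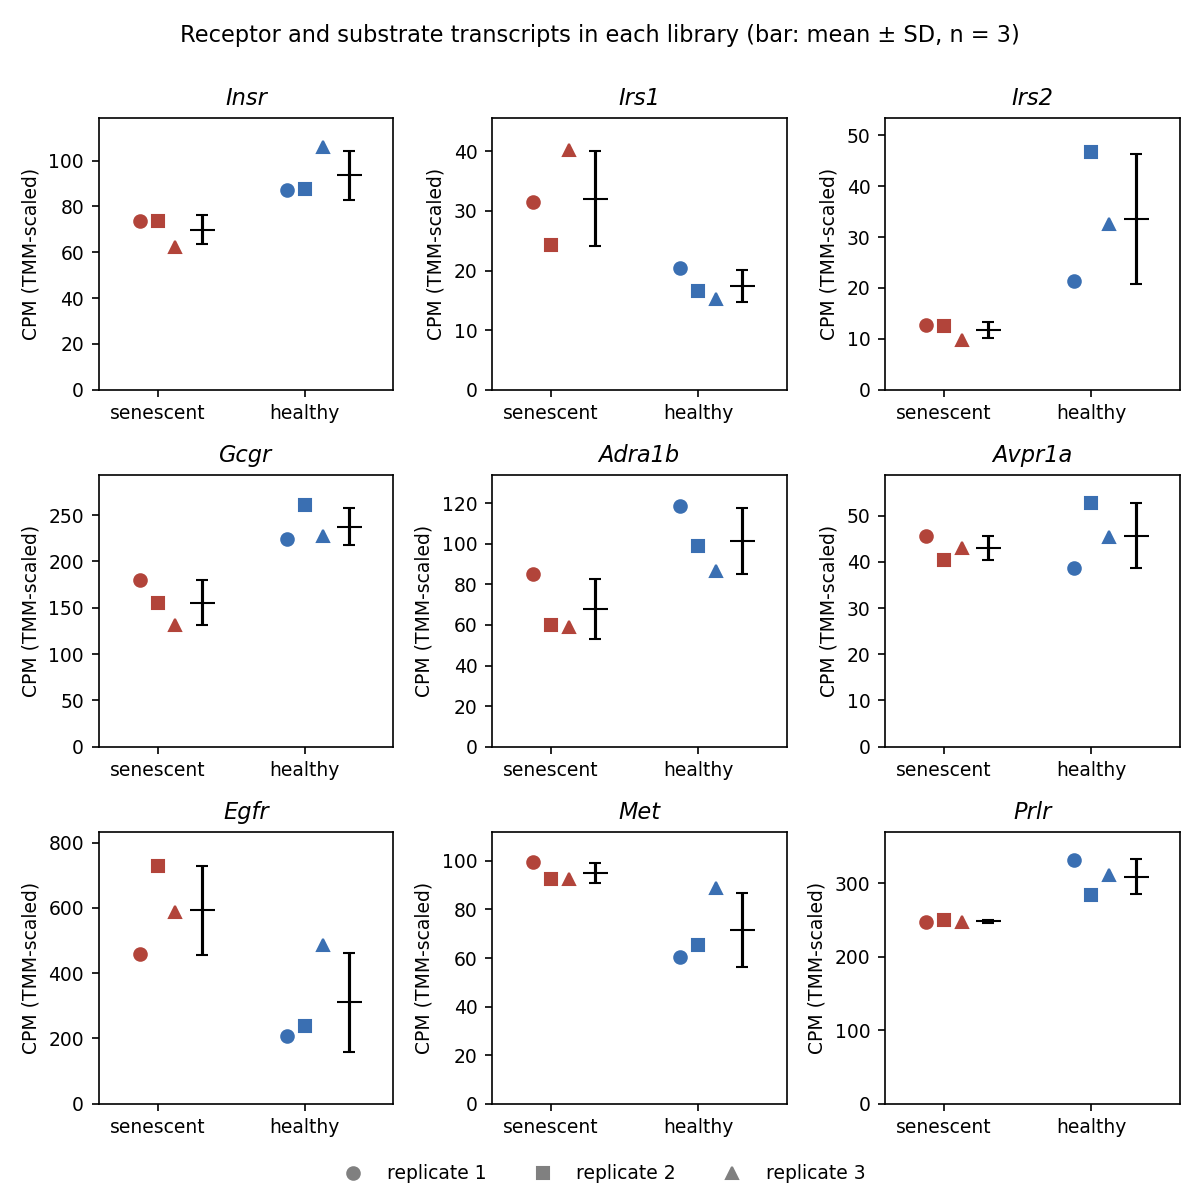
TMM-scaled CPM of the 9 transcripts (vertical axes, each from 0) in each senescent and healthy library (points, with a symbol per replicate), with the mean ± SD of 3 libraries beside them. Irs1 is higher and Irs2 lower in all senescent libraries, while for Egfr the healthy replicate 3, at 486 CPM, lies above the senescent replicate 1, at 459 CPM.

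The insulin receptor substrates moved in opposite directions. Irs2 (ENSMUSG00000038894; GRCm38 chromosome 8, 10984681 to 11008458, minus strand) is the substrate best known for carrying the fasting and feeding response of the liver. Irs1 (ENSMUSG00000055980; chromosome 1, 82233101 to 82291416, minus strand) is its paralog, known for the insulin response of muscle as well as liver. The stretches before their start sites are shown because they hold the same pair of short motifs side by side, in genes whose transcripts went opposite ways. They are the 250 bases upstream of the RefSeq start site on GRCm38.p6, 5′ to 3′ on the gene's strand, from chr1:82291440-82291689 for Irs1 and chr8:11008930-11009179 for Irs2, both on the minus strand.
Irs1: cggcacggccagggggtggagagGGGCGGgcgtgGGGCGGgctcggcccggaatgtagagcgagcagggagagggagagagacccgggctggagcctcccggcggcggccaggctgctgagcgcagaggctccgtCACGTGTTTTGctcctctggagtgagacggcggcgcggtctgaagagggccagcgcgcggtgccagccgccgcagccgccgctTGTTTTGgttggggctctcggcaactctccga
Irs2: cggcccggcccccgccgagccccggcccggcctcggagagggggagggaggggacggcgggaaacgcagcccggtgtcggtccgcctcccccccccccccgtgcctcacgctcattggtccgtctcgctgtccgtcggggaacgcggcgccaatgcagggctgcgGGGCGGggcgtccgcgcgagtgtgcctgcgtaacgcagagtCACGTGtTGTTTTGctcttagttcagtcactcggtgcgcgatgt
Capitals mark matches, on either strand, to an E-box (CACGTG), to the core of an insulin response element (CAAAACA, which reads TGTTTTG on the other strand) and to a GC box (GGGCGG). In Irs1 the E-box began 115 bases before the start and the first response element core 111 bases before it, sharing 2 bases, and another core lay 32 bases before the start. In Irs2 the E-box began 44 and the core 37 bases before the start, with 1 base between them. RefSeq places the start of Irs2 471 bases upstream of the GENCODE gene and that of Irs1 23 bases upstream. Of 32851 promoters in the RefSeq table, read from 250 bases before to 50 after the start, 7.15% held the E-box, 6.28% the response element core, 0.408% both and 0.0548% both within 10 bases of each other; the last count was made after the pair had been seen. Such matches describe letters and not binding.

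Irs2 stood at 12.7, 12.5 and 9.81 CPM in the senescent libraries and at 21.4, 46.8 and 32.6 CPM in the healthy ones. All senescent libraries lay below all healthy libraries, which varied among themselves by more than 2-fold. The log2 fold change was -1.52 ± 0.26, a fall of 2.88-fold (edgeR adjusted p = 0.0026). Irs1 stood at 31.5, 24.4 and 40.3 CPM in the senescent libraries and at 20.4, 16.6 and 15.2 CPM in the healthy ones. Here all senescent libraries lay above all healthy ones, and the log2 fold change was 0.88 ± 0.20, a rise of 1.84-fold (edgeR adjusted p = 0.0081). The calls of both genes held with every library left out in turn, between log2 fold changes of -1.77 and -1.22 for Irs2 and of 0.73 and 1.085 for Irs1.

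Since a ratio of counts within a library does not depend on the scaling between libraries, the adaptors were also set against each other. The ratio of Irs2 to Irs1 counts came to 0.402, 0.512 and 0.244 in the senescent libraries and to 1.05, 2.82 and 2.14 in the healthy ones. Irs1 was thus the more counted of the pair in every senescent library and Irs2 in every healthy one. The difference of the mean log2 ratios was -2.33, or 5.02-fold, with SDs of 0.55 in the senescent and 0.74 in the healthy group (exact two-sided permutation test, p = 0.1, the smallest that 3 against 3 allows, and 0.2 adjusted over the 4 ratios tested here). Per length, in TPM (counts over exonic bases, scaled to the same sum in each library), Irs2 made up 36.7%, 42.5% and 26.1% of the sum of both in senescent replicates 1, 2 and 3, against 60.2%, 80.3% and 75.6% in the healthy ones. That sum was 14.2 ± 2.16 TPM in senescent and 14.6 ± 3.86 TPM in healthy libraries (SD, n = 3 each), a difference smaller than the spread within either group. TPM carries no TMM scaling. Total library size, which also leaves TMM out, placed the middle gene 0.33 higher in senescent libraries on the log2 scale. Similar sums in TPM therefore do not show that the sum was unchanged relative to TMM, and this was not tested. An antisense transcript that shares 162 exonic bases with Irs2 had 2 counts over all libraries, and 2822 of the 9144 exonic bases of Irs1 lie opposite exons of a gene on the other strand, which the count table does not list.

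**Figure D2:**
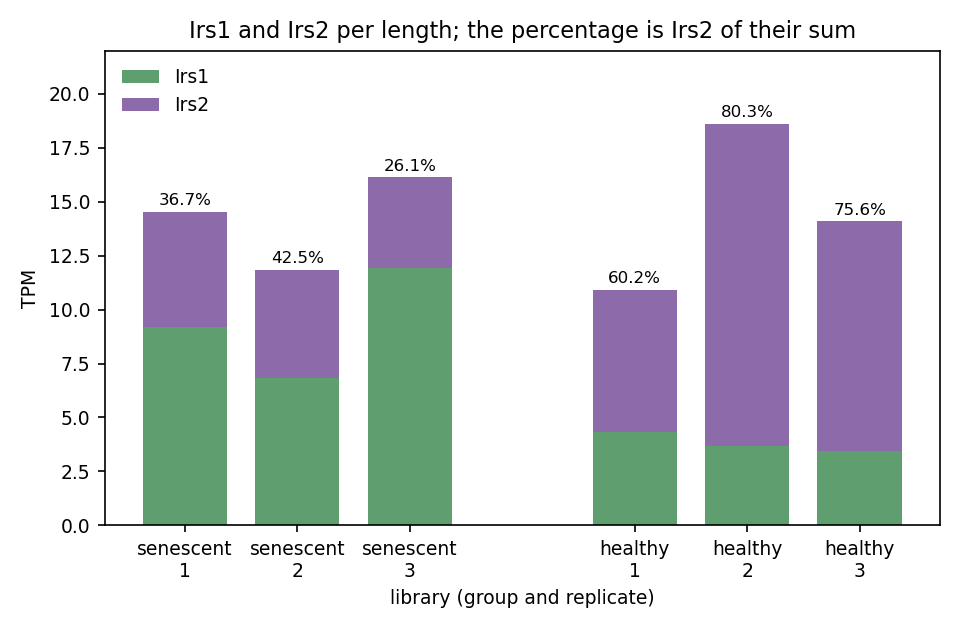
Stacked bars of Irs1 and Irs2 in TPM (vertical axis from 0) for each senescent and healthy library, with the percentage that Irs2 makes of their sum above each bar. Irs2 is 26.1% to 42.5% of the sum in senescent libraries and 60.2% to 80.3% in healthy ones. The heights of the bars, which carry no TMM scaling, overlap.

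Insr (ENSMUSG00000005534; chromosome 8, 3122061 to 3279617), the gene of the insulin receptor itself, stood at 73.7, 73.4 and 62.5 CPM in the senescent libraries and at 87.2, 87.8 and 106 CPM in the healthy ones. The groups did not overlap, and Insr fell by 0.42 ± 0.13 on the log2 scale (edgeR adjusted p = 0.028). The call was lost without senescent replicate 1 (adjusted p = 0.065), 2 (0.089) or 3 (0.16), without healthy replicate 3 (0.059) and with total library size (log2 fold change -0.11, 0.47). Gene counts do not separate the splice forms of this receptor.

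Among 29 other insulin signalling genes, all tested, 11 rose, 2 fell and 16 did not pass, with a median of 0.20. Beside this list and those below stand all genes tested, of which 20.4% rose and 20.7% fell, with a median of 0.01. With total library size these shares were 37.5% and 9.92%. Grb10, an adaptor that binds the insulin receptor and restrains its signal, rose to 12.2 ± 2.52 CPM in senescent libraries, against 0.901 ± 0.359 CPM in healthy ones (log2 fold change 3.74 ± 0.30, edgeR adjusted p = 4.7e-05). Pik3cb, a catalytic subunit of phosphatidylinositol 3-kinase, averaged 30.5 ± 1.92 CPM in senescent and 13.8 ± 1.22 CPM in healthy libraries (log2 fold change 1.15 ± 0.12, edgeR adjusted p = 1.8e-04). The falls were those of the kinase gene Akt1, at 43.8 ± 0.951 CPM in senescent and 62.3 ± 5.28 CPM in healthy libraries, and of Trib3, a pseudokinase gene whose product binds AKT, at 2.33 ± 0.442 CPM in senescent and 4.85 ± 1.19 CPM in healthy libraries. The fall of Akt1 was not called with total library size (log2 fold change -0.20, edgeR adjusted p = 0.19). On that scale 17 of the 29 rose and 1 fell. Without senescent replicate 3, or without healthy replicate 2, 6 rose.

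Gcgr (ENSMUSG00000025127; chromosome 11, 120530699 to 120538986) encodes the glucagon receptor and had per length the highest mean of the 9 in both groups, although in senescent replicates 2 and 3 Egfr was higher. It stood at 180.1, 155 and 131 CPM in the senescent libraries and at 225, 261 and 227 CPM in the healthy ones. Every senescent library lay below every healthy one, and Gcgr fell by 0.61 ± 0.14 on the log2 scale, or 1.53-fold (edgeR adjusted p = 0.011). The call was lost without senescent replicate 2 (adjusted p = 0.052) or 3 (0.061) and with total library size (log2 fold change -0.30, 0.11). The ratio of Gcgr to Insr counts came to 2.44, 2.11 and 2.10 in the senescent libraries and to 2.57, 2.97 and 2.15 in the healthy ones, so the groups overlapped. The mean log2 ratios differed by -0.20, with SDs of 0.12 in senescent and 0.23 in healthy libraries (exact two-sided permutation test, p = 0.2, also after adjustment over the 4 ratios).

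Of 27 genes of the glucagon and cAMP pathway 23 could be tested. Among these 6 rose (20.4% of all genes did), 4 fell (20.7% of all genes) and 13 did not pass, with a median of -0.03. Prkar1a, a regulatory subunit of protein kinase A, averaged 259 ± 30.7 CPM in senescent and 127 ± 8.44 CPM in healthy libraries (log2 fold change 1.03 ± 0.13, edgeR adjusted p = 5.5e-04). Arrb1, the gene of beta-arrestin 1, which desensitises G protein-coupled receptors, averaged 8.84 ± 1.41 CPM in senescent and 3.92 ± 0.5003 CPM in healthy libraries (edgeR adjusted p = 0.0015). Pde3b, a phosphodiesterase gene known for lowering cAMP in answer to insulin, fell to 40.2 ± 2.57 CPM in senescent libraries, against 61.3 ± 5.22 CPM in healthy ones. Crebl2, a bZIP factor gene related to CREB, averaged 32.5 ± 0.892 CPM in senescent and 47.1 ± 4.31 CPM in healthy libraries, and both falls passed (edgeR adjusted p = 0.0038 and 0.0058). Neither passed with total library size (log2 fold changes -0.30 and -0.22, edgeR adjusted p = 0.082 and 0.14), where 9 genes of the pathway rose and 0 fell. Without senescent replicate 3 there were 3 rises. Leaving out healthy replicate 2 or any senescent library gave 2 falls.

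Of the receptors coupled to Gq, Adra1b was called lower and Avpr1a was not called. The exact permutation test of their ratio cannot go below p = 0.1 with 3 against 3, so it does not decide whether their changes differed. Adra1b (ENSMUSG00000050541; chromosome 11, 43774606 to 43901210), the alpha-1B adrenergic receptor through which adrenaline raises hepatocyte calcium, stood at 85.1, 59.9 and 59.2 CPM in the senescent libraries and at 119, 99.1 and 86.5 CPM in the healthy ones. The highest senescent library lay just below the lowest healthy one, and the log2 fold change was -0.58 ± 0.18, a fall of 1.49-fold (edgeR adjusted p = 0.032). The call was lost without senescent replicate 2 (adjusted p = 0.13) or 3 (0.15), without healthy replicate 1 (0.085) or 2 (0.068) and with total library size (log2 fold change -0.26, 0.25). Avpr1a (ENSMUSG00000020123; chromosome 10, 122448499 to 122453452), the V1a vasopressin receptor, stood at 45.7, 40.3 and 42.9 CPM in the senescent libraries and at 38.7, 52.8 and 45.5 CPM in the healthy ones. These values overlapped throughout, and the log2 fold change was -0.09 ± 0.14 (edgeR adjusted p = 0.64), with the opposite sign under total library size (0.23) and without healthy replicate 2 (0.02). The ratio of Adra1b to Avpr1a counts came to 1.86, 1.48 and 1.38 in the senescent libraries and to 3.07, 1.87 and 1.90 in the healthy ones. Senescent replicate 1 and healthy replicate 2 all but met, and the mean log2 ratios differed by -0.51, with SDs of 0.23 in senescent and 0.40 in healthy libraries (exact two-sided permutation test, p = 0.1, the smallest possible, 0.2 adjusted over the 4 ratios). Without healthy replicate 1 the difference was -0.27.

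All 29 Gq and calcium signalling genes were tested. Among these 9 rose (20.4% of all genes did), 5 fell (20.7% of all genes) and 15 did not pass, with a median of 0.23. Dgkq, a diacylglycerol kinase gene, averaged 43.3 ± 6.31 CPM in senescent and 22.3 ± 1.29 CPM in healthy libraries (edgeR adjusted p = 9.0e-04). Stim1, the calcium sensor of the endoplasmic reticulum, averaged 73.8 ± 4.94 CPM in senescent and 41.0 ± 5.64 CPM in healthy libraries (edgeR adjusted p = 0.0016). Rgs3, whose product shortens G protein signals, fell to 3.85 ± 0.863 CPM in senescent libraries, against 17.8 ± 10.4 CPM in healthy ones (edgeR adjusted p = 0.0028). Itpr2, the gene of the inositol trisphosphate receptor type that prevails in hepatocytes, averaged 24.4 ± 0.733 CPM in senescent and 36.9 ± 6.10 CPM in healthy libraries (edgeR adjusted p = 0.0084), a fall not called with total library size (log2 fold change -0.28, edgeR adjusted p = 0.11). Under it 14 of the 29 rose and 2 fell, and without senescent replicate 3 there were 3 falls.

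**Figure D3:**
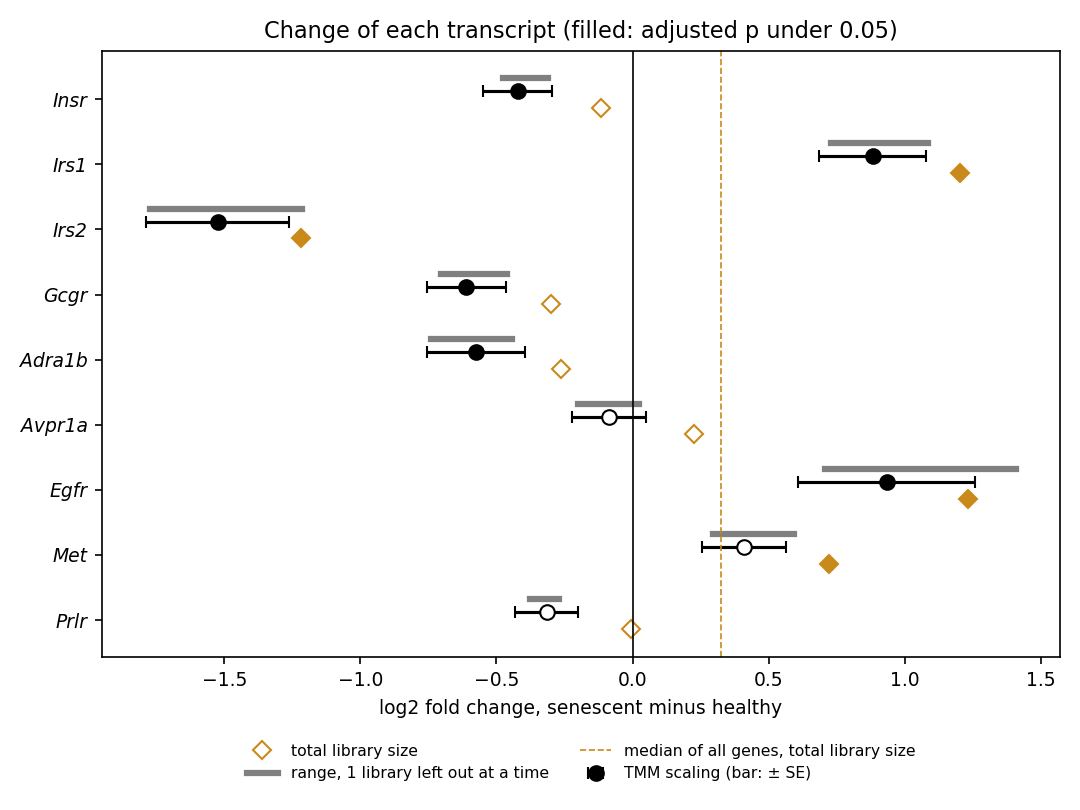
Log2 fold change, senescent minus healthy (horizontal axis), of each of the 9 genes with TMM scaling (circles, ± SE) and with total library size (diamonds), filled where the adjusted p is under 0.05, with the range over fits that leave out 1 library (grey bars) and the median of all genes under total library size (dashed, 0.33). Irs1, Irs2 and Egfr are filled under both scalings, Gcgr, Insr and Adra1b under TMM alone and Met under total library size alone.

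The growth factor receptor kinases both had higher means in senescent cells, and 1 of them passed the test. Egfr (ENSMUSG00000020122; chromosome 11, 16752203 to 16918158), the receptor of epidermal growth factor, TGF-alpha and amphiregulin, stood at 459, 729.9 and 588 CPM in the senescent libraries and at 208, 237 and 486 CPM in the healthy ones. In CPM the groups overlapped, since healthy replicate 3 had over 2-fold the level of the other healthy libraries and exceeded senescent replicate 1. They did not overlap in TPM, at 108, 165 and 141 in the senescent libraries and 35.8, 42.3 and 88.8 in the healthy ones. Egfr rose by 0.93 ± 0.32 on the log2 scale, or 1.91-fold (edgeR adjusted p = 0.048). The call was lost without senescent replicate 2 (adjusted p = 0.13) or 3 (0.11) and without healthy replicate 1 (0.12) or 2 (0.15), and without healthy replicate 3 the log2 fold change was 1.41 (0.0023). An antisense gene lies within the Egfr locus and shares 0 of its exonic bases.

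Met (ENSMUSG00000009376; chromosome 6, 17463800 to 17573980), the receptor of hepatocyte growth factor, stood at 99.8, 92.6 and 92.7 CPM in the senescent libraries and at 60.3, 65.3 and 88.8 CPM in the healthy ones. The groups did not overlap, but healthy replicate 3 came close to the senescent libraries. The log2 fold change was 0.41 ± 0.15 (edgeR adjusted p = 0.063). It passed without healthy replicate 3 (0.59, edgeR adjusted p = 0.0049) and with total library size (0.72, 0.0074), and just passed in DESeq2 (0.41, adjusted p = 0.04998). The ratio of Egfr to Met counts came to 4.60, 7.89 and 6.35 in the senescent libraries and to 3.44, 3.63 and 5.48 in the healthy ones, which overlapped (difference of mean log2 ratios 0.58, SDs 0.39 in senescent and 0.37 in healthy libraries, exact two-sided permutation test, p = 0.2, also adjusted).

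Of 36 other genes of EGFR and MET signalling 33 were tested. Among these 11 rose (20.4% of all genes did), 5 fell (20.7% of all genes) and 17 did not pass, with a median of 0.29. Hras, a RAS GTPase gene, averaged 90.5 ± 3.54 CPM in senescent and 34.5 ± 5.28 CPM in healthy libraries (log2 fold change 1.39 ± 0.14, edgeR adjusted p = 1.4e-04). Cbl, whose ubiquitin ligase sends activated EGFR and MET for degradation, averaged 11.4 ± 1.98 CPM in senescent and 5.21 ± 0.617 CPM in healthy libraries (edgeR adjusted p = 0.0015). Hgfac, the gene of the protease that activates hepatocyte growth factor, fell to 202 ± 16.2 CPM in senescent libraries, against 392 ± 28.2 CPM in healthy ones (edgeR adjusted p = 6.4e-04). Erbb3, a relative of Egfr that signals in pairs with other ERBB receptors, averaged 51.4 ± 20.1 CPM in senescent and 134.5 ± 20.3 CPM in healthy libraries (log2 fold change -1.39 ± 0.25, edgeR adjusted p = 0.0034). The ligand gene Hgf, named after its values were seen, averaged 2.72 ± 0.532 CPM in senescent and 0.512 ± 0.413 CPM in healthy libraries (log2 fold change 2.41 ± 0.58, edgeR adjusted p = 0.011). Its healthy mean rests on few reads, since 3 counts correspond to 0.101, 0.117 and 0.106 CPM in healthy replicates 1, 2 and 3. The log2 fold change was 3.10 without healthy replicate 3 and 1.87 without healthy replicate 1. Stellate cells are the known source of Hgf in liver. Among the 11 tested stellate cell and fibroblast markers 7 were called higher, where 20.4% of all genes were. The count was 3 without healthy replicate 1 or 3 and 2 without senescent replicate 3. Whether these cells had a part in the rise of Hgf was not tested. Scaled by total library size, 17 of the 33 rose and 3 fell.

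Prlr (ENSMUSG00000005268; chromosome 15, 10177238 to 10349180), the prolactin receptor, stood at 247, 250.2 and 247 CPM in the senescent libraries and at 331, 284 and 311 CPM in the healthy ones. The senescent libraries lay within a few CPM of each other and below all healthy ones. The log2 fold change was -0.32 ± 0.11 (edgeR adjusted p = 0.056), which passed in DESeq2 (-0.32, adjusted p = 0.019) and was -0.01 with total library size. Its long and short receptor forms are not separated by gene counts, and it shares 203 exonic bases with a gene on the same strand that the count table does not list. Of 19 other genes of prolactin and JAK-STAT signalling 18 were tested. Among these 2 rose (20.4% of all genes did), 3 fell (20.7% of all genes) and 13 did not pass, with a median of -0.15. Socs2, a STAT5-induced inhibitor of cytokine signalling, fell to 11.0 ± 1.46 CPM in senescent libraries, against 60.1 ± 37.3 CPM in healthy ones (log2 fold change -2.45 ± 0.42, edgeR adjusted p = 0.0024). Ghr, the growth hormone receptor gene, averaged 246 ± 15.01 CPM in senescent and 405 ± 46.1 CPM in healthy libraries (edgeR adjusted p = 0.0034). The kinase gene Tyk2 rose to 37.0 ± 0.681 CPM, against 24.7 ± 0.565 CPM in healthy libraries (edgeR adjusted p = 0.0019). Il6ra, the interleukin 6 receptor gene, averaged 94.8 ± 11.1 CPM in senescent and 56.9 ± 14.3 CPM in healthy libraries (edgeR adjusted p = 0.013, but 0.055 without senescent replicate 3 and 0.052 without healthy replicate 2). Scaled by total library size, 6 of the 18 rose and 2 fell, and without senescent replicate 3 or healthy replicate 2 there was 1 rise.

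Of 41 other hormone and growth factor receptors, Ghr and Erbb3 above among them, 28 were tested and 9 had 0 counts in every library. Among those tested 5 rose (20.4% of all genes did) and 9 fell (20.7% of all genes), with 14 not passing and a median of 0.13. The summed level of the 41 was 1124 ± 70.0 CPM in senescent and 1746 ± 109 CPM in healthy libraries. Most of that difference lay in Adipor2 and Ghr, so the sum does not describe these receptors as a class. Among the receptors of at least 5 TPM, Adipor2, an adiponectin receptor gene, averaged 370.3 ± 58.4 CPM in senescent and 789 ± 45.6 CPM in healthy libraries. The FGF receptor genes named differed in direction: Fgfr4, which with its partner Klb receives the intestinal hormone FGF15, fell to 18.9 ± 2.13 CPM in senescent libraries, against 55.9 ± 5.58 CPM in healthy ones, and Klb averaged 10.0 ± 1.69 CPM in senescent and 34.3 ± 6.24 CPM in healthy libraries, whereas Fgfr3 averaged 67.2 ± 6.37 CPM in senescent and 25.9 ± 3.43 CPM in healthy libraries. Agtr1a, the angiotensin II receptor gene, averaged 30.2 ± 7.07 CPM in senescent and 67.7 ± 5.89 CPM in healthy libraries. These changes of Adipor2, Fgfr4, Klb, Fgfr3 and Agtr1a had edgeR adjusted p of 9.5e-04, 6.4e-05, 1.6e-04, 1.6e-04 and 0.0012. Igf2r, which carries mannose 6-phosphate proteins and IGF2 to the lysosome, averaged 125 ± 15.2 CPM in senescent and 32.9 ± 3.86 CPM in healthy libraries (log2 fold change 1.93 ± 0.14, edgeR adjusted p = 3.1e-05).

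Beside the fall of Adra1b, Adrb3, an adrenergic receptor gene known chiefly from adipose tissue, averaged 16.4 ± 1.78 CPM in senescent and 3.17 ± 1.02 CPM in healthy libraries (log2 fold change 2.37 ± 0.23, edgeR adjusted p = 1.5e-04). Per length, Adrb3 averaged 12.8 TPM in senescent and 1.88 TPM in healthy libraries, below Adra1b at 53.2 TPM in senescent and 60.2 TPM in healthy libraries. Scaled by total library size, 11 of the 28 receptors rose and 8 fell.

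**Figure D4:**
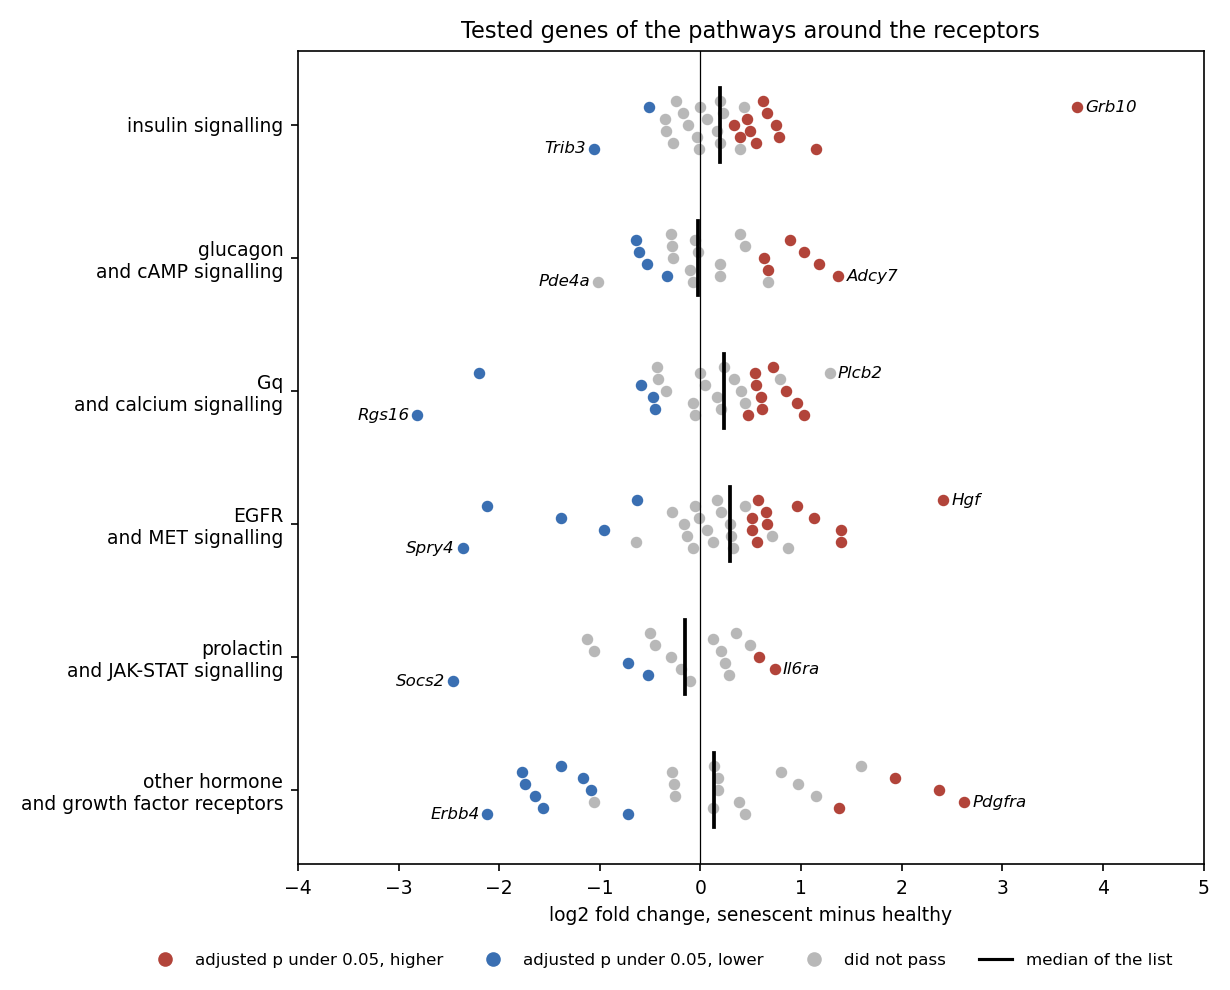
Log2 fold change, senescent minus healthy (horizontal axis), of the tested genes of the 6 lists around the receptors (points, coloured by the call; 1 gene of the last list is not shown), with the median of each whole list as a black line and the lowest and the highest gene shown of each list named. Medians lie between -0.15 and 0.29, while single genes reach from -2.81 (Rgs16) to 3.74 (Grb10).

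Levels were compared between genes per length. In senescent libraries the order was Gcgr (157 ± 24.3 TPM), Egfr (138 ± 28.4), Adra1b (53.2 ± 12.1), Prlr (42.8 ± 1.00), Avpr1a (42.6 ± 3.61), Met (32.7 ± 1.93), Insr (13.4 ± 1.02), Irs1 (9.31 ± 2.56) and Irs2 (4.86 ± 0.591 TPM; SD, n = 3 for each). Among neighbours in that order, Gcgr and Egfr overlapped between libraries (Egfr was higher in senescent replicate 2, at 165 against 151 TPM, and in replicate 3, at 141 against 136 TPM), as did Prlr and Avpr1a, and the means of Adra1b and Prlr differed by less than the SD of Adra1b. In healthy libraries it was Gcgr (182 ± 17.2 TPM), Adra1b (60.2 ± 7.805), Egfr (55.6 ± 28.9), Prlr (40.5 ± 2.63), Avpr1a (34.5 ± 5.92), Met (18.8 ± 4.53), Insr (13.7 ± 1.92), Irs2 (10.7 ± 4.19) and Irs1 (3.82 ± 0.471 TPM; SD, n = 3 for each). There the values from Adra1b to Avpr1a overlapped from neighbour to neighbour, as did those from Met to Irs2, while Gcgr stood above and Irs1 below all the others. With the longest transcript as the length, in place of all exonic bases, Prlr moved to 55.6 TPM in senescent and 52.8 TPM in healthy libraries, above Adra1b at 45.3 TPM in senescent and 51.4 TPM in healthy libraries.

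**Figure D5:**
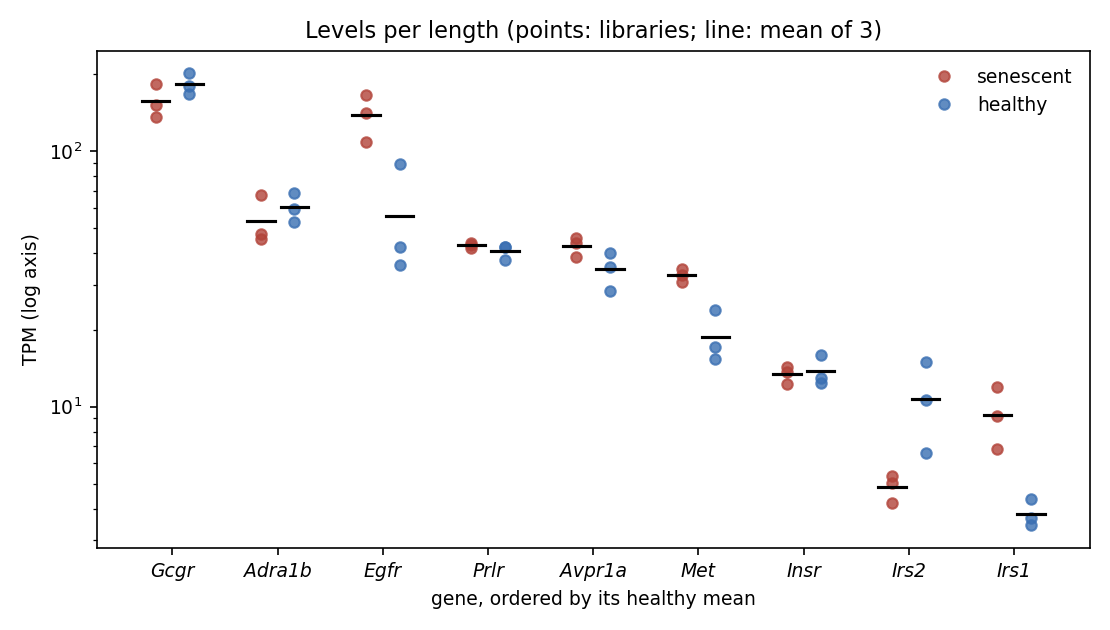
TPM (log axis) of the 9 genes in each senescent and healthy library (points), ordered by the healthy mean, with a line at the mean of 3 libraries. Gcgr has the highest mean in both groups, at 157 TPM in senescent and 182 TPM in healthy libraries, but Egfr is above it in senescent replicates 2 and 3, and Irs1 and Irs2 exchange the last places.

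The remaining upstream stretches were read for the same motifs, with 8 of the 9 genes found in the RefSeq table. The shares in parentheses are of all promoters and cover the window from 250 bases before to 50 after the start. A GC box (35.7% of all promoters) was found for Gcgr, 1 of the start regions of Adra1b, Egfr and Met as well as for both adaptors, and the E-box (7.15%) for Met. The letters of a TATA box (TATAAA, 13.6%) were found for Avpr1a alone, beginning 137 bases before the start. Of 3 start regions of Prlr, 1 held a forkhead motif (GTAAACA, 3.65%), the core of a cAMP response element (TGACGT, 7.51%) and a STAT motif (TTCNNNGAA, 8.30%), all upstream. Another held the core of an insulin response element (6.28%) downstream of the start, from base 38 with the start as base 1.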

How the data were processed

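Polyadenylated RNA was sequenced from libraries of 500 ng of total RNA made with a strand-marking kit and 10 cycles of PCR, per the labels' protocols. The values are raw read counts per Ensembl gene, in 1 table deposited by the authors. The submitters' processing notes name GRCm38, STAR 2.7.1a and featureCounts, with cutadapt 1.16, FastQC, MultiQC 1.3 and DESeq2 1.34.0. Neither the annotation release nor the strand setting is stated there, so reads of overlapping and antisense genes cannot be separated with certainty. The column taken as healthy replicate 2 differs from that sample's code in 1 letter. Symbols were found for 99.8% of IDs; coordinates and lengths are from GENCODE M21 (GRCm38) and promoters from RefSeq (GRCm38.p6).

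Counts were tested with edgeR 4.0.16 in R 4.3.3 (filterByExpr with a minimum count of 10 and a minimum total of 15, TMM, quasi-likelihood F test, two-sided, no covariate) and adjusted by Benjamini-Hochberg over 12949 genes. The SE is the log2 fold change over the square root of F. DESeq2 1.42.0 and limma-voom (limma 3.58.1) were alternatives, listed with the others in the closing section. On simulated counts for 12811 tested genes of this comparison, edgeR called 73 of 99 genes changed 2-fold and 95 of 95 changed 4-fold in the right direction, with 15 calls among 12617 unchanged genes. The simulation changed few genes, balanced between rises and falls, with no shift in composition between the groups. It therefore does not cover the choice of scaling. No library was a copy of another: chi-square per degree of freedom was at least 49.5 in every pair of a group. The 9 genes and the lists were chosen with earlier results of these data known. Genes outside the 9 were named by a rule: the 2 risen and 2 fallen genes of each pathway list with the smallest p, called receptors of at least 5 TPM, the most abundant markers, and for each of the 9 the gene with the nearest profile. The exceptions are said to have been named after their values were seen. 1 receptor gene counted in the lists is not reported by name here.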

Additional observations from a re-analysis of the deposited data

How the results depend on the processing

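Irs1 and Irs2 kept their direction and call in every alternative run: DESeq2, limma-voom, DESeq2-type size factors, total library size, no filter, a mean of at least 1 CPM, removal of the 50 most abundant genes, an adjusted p under 0.01, the replicate block and each library left out. Across all genes, 2644 rose and 2680 fell; total library size gave 4861 and 1285, and an adjusted p under 0.01 gave 1570.0 and 1498. Of the 9 genes, 2 rose and 4 fell; at an adjusted p under 0.01 these were 1 (Irs1) and 1 (Irs2), and with total library size 1 fell. At that stricter threshold Gcgr (log2 fold change -0.61, adjusted p = 0.011), Insr (-0.42, 0.028), Adra1b (-0.58, 0.032) and Egfr (0.93, 0.048) no longer passed. Total library size ended the calls of Gcgr (-0.30), Insr (-0.11) and Adra1b (-0.26), added Met (0.72) and turned Avpr1a (0.23). DESeq2 added Met (0.41, adjusted p = 0.04998) and Prlr (-0.32, adjusted p = 0.019).

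With 1 library left out, 1 to 3 of the 9 genes rose and 1 to 3 fell, with 1 fall (Irs2) without senescent replicate 2 or 3. Over all genes 1836 to 2691 rose and 1489 to 2789 fell, the lowest counts being those without senescent replicate 3. The log2 fold change ranged from -0.70 to -0.46 for Gcgr, -0.48 to -0.31 for Insr, -0.74 to -0.44 for Adra1b, -0.20 to 0.025 for Avpr1a (above 0 without healthy replicate 2), 0.71 to 1.41 for Egfr, 0.30 to 0.59 for Met and -0.38 to -0.27 for Prlr. The same-numbered samples did not pair: their deviations correlated at 0.23, -0.17 and -0.04. With the replicate block all 6 calls held and none was added (Egfr 1.02, adjusted p = 0.02). The within-number differences of the ratios equal the differences above (exact sign-flip test, p = 0.25, the smallest possible).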

Other observations

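Some transcripts of the pathways had their highest or lowest healthy library in common with Egfr, Met or Irs2. These were picked after their values were seen, and no cause was tested. With 3 healthy libraries such a match can readily arise by chance, and the share of all genes showing it was not counted. Dusp6, the ERK phosphatase gene, had 133, 116 and 158 CPM in senescent replicates 1, 2 and 3 and 31.6, 43.8 and 79.7 CPM in the healthy ones, and the healthy replicate 3 that was high in Egfr and Met was also the highest healthy library in Dusp6. Among the senescent libraries, however, Dusp6 was lowest in replicate 2, where Egfr was highest. The log2 fold change of Dusp6 was 1.40 ± 0.31 (edgeR adjusted p = 0.0078). Spry4, another feedback inhibitor of receptor kinases, went the other way, with 3.40, 2.07 and 1.91 CPM in senescent and 5.02, 17.0 and 16.2 CPM in healthy libraries (log2 fold change -2.36 ± 0.45, edgeR adjusted p = 0.0041). Healthy replicate 1, the lowest healthy library in Irs2, was also the lowest healthy library in Spry4, in Rgs16 and in Socs2. Rgs16, a regulator of G protein signals, had 12.1, 14.7 and 13.5 CPM in senescent and 15.6, 143 and 124 CPM in healthy libraries (log2 fold change -2.81 ± 0.66, edgeR adjusted p = 0.010). Socs2 had 12.6, 10.3 and 9.93 CPM in senescent and 26.9, 100.5 and 53.1 CPM in healthy libraries.

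Among 7492 genes of at least 10 CPM, the nearest profile over the 6 libraries, by the root mean square difference of centred log2(CPM + 1), was that of Itih1 for Gcgr (0.038), Pitrm1 for Insr (0.058), the keratin gene Krt18 for Irs1 (0.10), the sterol acyltransferase gene Soat2 for Irs2 (0.16), Ngef for Adra1b (0.058), Thap4 for Avpr1a (0.037), Dcun1d3 for Egfr (0.092), the RAF kinase gene Braf for Met (0.068) and Mcts1 for Prlr (0.030). Soat2 averaged 17.3 ± 1.11 CPM in senescent and 47.2 ± 9.67 CPM in healthy libraries, and Krt18 averaged 341 ± 63.6 and 182 ± 12.7 CPM.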
